A study of Mus musculus with 6 samples.

Results

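Regulators of G-protein signaling (RGS) were measured for 10 genes: Rgs2, Rgs3, Rgs4, Rgs7, Rgs10, Rgs12, Rgs14, Rgs16, Rgs19 and Rgs20. They were chosen by name, as every non-control spot of the array whose annotation names a member gene, which gave 20 spots for 10 genes among 59305 non-control spots that name 22190 genes. Each of the 20 spots holds a different probe. Total RNA came from 1G11, a mouse microvascular endothelial cell line of strain C57BL/6NCrLBR, in a control form (1G11-mock, 3 arrays) and in a form that overexpresses the extracellular superoxide dismutase SOD3 (1G11-SOD3, 3 arrays). Before RNA isolation the cells of both forms spent 6 h in culture medium that N202.1A cells, a murine mammary cancer line, had conditioned, so the tumor-conditioned medium is shared by the groups and its own effect is not measured. The comparison asks which transcripts differ between SOD3-overexpressing and control endothelial cells under that medium. Each form is a line kept in culture, so a difference between them may belong to the line as well as to the transgene, and these cannot be told apart. The 3 arrays per form are independent experiments by the study's account.

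RGS proteins are GTPase-activating proteins. A receptor coupled to a heterotrimeric G protein makes the alpha subunit release GDP and bind GTP, and the RGS box, the domain that all of these proteins share, speeds the hydrolysis of that GTP and so ends the signal. Rgs2, Rgs3, Rgs4 and Rgs16 belong to the small R4 subfamily, Rgs7 to the R7 subfamily that pairs with the beta subunit Gnb5, Rgs10, Rgs12 and Rgs14 to the R12 subfamily, and Rgs19 and Rgs20 to the RZ subfamily. In endothelial cells these proteins limit signals of receptors for thrombin, sphingosine 1-phosphate, endothelin and chemokines.

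Of the 20 probes, 8 were well above background on all 6 arrays, a call that the scanner software makes for each spot. They were 1 of the 2 probes for Rgs2, 2 of the 4 for Rgs3, 1 of the 3 for Rgs12, all 3 for Rgs19 and 1 of the 2 for Rgs20. Another 4 probes were above background on 2 to 5 arrays, namely the only probe for Rgs10, the other two for Rgs12 and the other one for Rgs20. The last 8 probes were above background on no array. Rgs4, Rgs7, Rgs14 and Rgs16 had no probe above background on any array, and no fold change is given for them.

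The probes are 60 bases long, and those that carry the results are printed here as the scanner files give them, 5′ to 3′. The probes Rgs2 A_55_P2109857, Rgs3 A_55_P2027107 and Rgs7 A_55_P2089198 lie on the coding stretch near the end of the RGS box. They share the letters CCNCGNTT, given in capitals, and are shown because the Rgs2 and Rgs3 probes gave differences of opposite sign while the Rgs7 probe stayed at background.

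Rgs2 A_55_P2109857: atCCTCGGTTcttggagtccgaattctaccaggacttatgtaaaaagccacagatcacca

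Rgs3 A_55_P2027107: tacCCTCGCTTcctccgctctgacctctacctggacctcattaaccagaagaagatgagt

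Rgs7 A_55_P2089198: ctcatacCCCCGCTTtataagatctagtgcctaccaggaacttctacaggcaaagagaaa

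The letters CCNCGNTT stand in 3 of the 20 RGS probes and in 195 of all 55681 probes, which is 0.35% on the given strand and 0.677% when either strand is searched. The 2 probes for Rgs20 overlap by 18 bases of the transcript, given in capitals in the facing 30 bases of each, and are shown because they gave different results. The probe A_55_P2102155 ends in a run of 29 alternating C and T bases, not printed, and no other probe of the array holds an alternating run of these bases as long on the given strand.

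Rgs20 A_55_P2037023, bases 31 to 60: atatttcacaaaGATGTGACTATTCCTTGT

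Rgs20 A_55_P2102155, bases 1 to 30: GATGTGACTATTCCTTGTaaaaaatggaaa

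The single Rgs10 probe carries the largest value of the set. Its first 30 bases are shown without capitals, since neither CCNCGNTT nor AATAAA stands in them on the given strand.

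Rgs10 A_51_P218774, bases 1 to 30: gaccttccctctggatatgtgtattttatt

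The 3 probes for Rgs19 tile the same transcript and did not give the same value. Their last 30 bases are shown, with the polyadenylation signal AATAAA in capitals where present. AATAAA stands on the given strand in 4 of the 20 RGS probes, and 10.1% of all probes hold it on that strand (13.5% on either; 1 further RGS probe has it on the other strand).

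Rgs19 A_55_P2183692, bases 31 to 60: cacagatcttctactcccatgggcagccta

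Rgs19 A_52_P555235, bases 31 to 60: actcctctacattccaaagacatgaaattg

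Rgs19 A_55_P2078403, bases 31 to 60: tcttactgatccAATAAAaccaaagcacct

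The scanner files place each probe on a chromosome without naming the genome build. The Rgs2 probe starts at base 587 of its transcript, at chr1:145848830-145848889 on the minus strand. The Rgs10 probe starts at base 698, at chr7:135517256-135517315, also on the minus strand. The 2 Rgs20 probes lie at chr1:4900050-4900109 and chr1:4900008-4900067, again on the minus strand.

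One feature of the arrays bears on every RGS probe. Where a probe had copies both in the middle of the array (a block of rows and columns around its centre with 6606 of the 59305 spots) and elsewhere, the copies in the middle were dimmer on the 1G11-mock arrays, by a median log2 difference of -0.83, -1.27 and -2.62 over 128 such probes, and at 0.22, -0.22 and 0.13 on the 1G11-SOD3 arrays. The 18 RGS spots outside that area and the 2 inside it, those of Rgs10 and of Rgs20 A_55_P2037023, are therefore given apart. All 6 arrays were on 1 slide and in 1 scan, with the 1G11-mock arrays in slide row 2 and the 1G11-SOD3 arrays in slide row 1, so row and line cannot be told apart. Between 34.2% and 43.77% of the spots of an array were above background and none was saturated. The Sod3 probe, itself in the middle, was higher in 1G11-SOD3 by 4.27 on the log2 scale (16.31 ± 0.05 against 12.04 ± 1.95, SD, n = 3; limma adjusted p = 0.00764), and by 2.78 after adjustment for position (adjusted p = 0.0149).

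**Figure D1:**
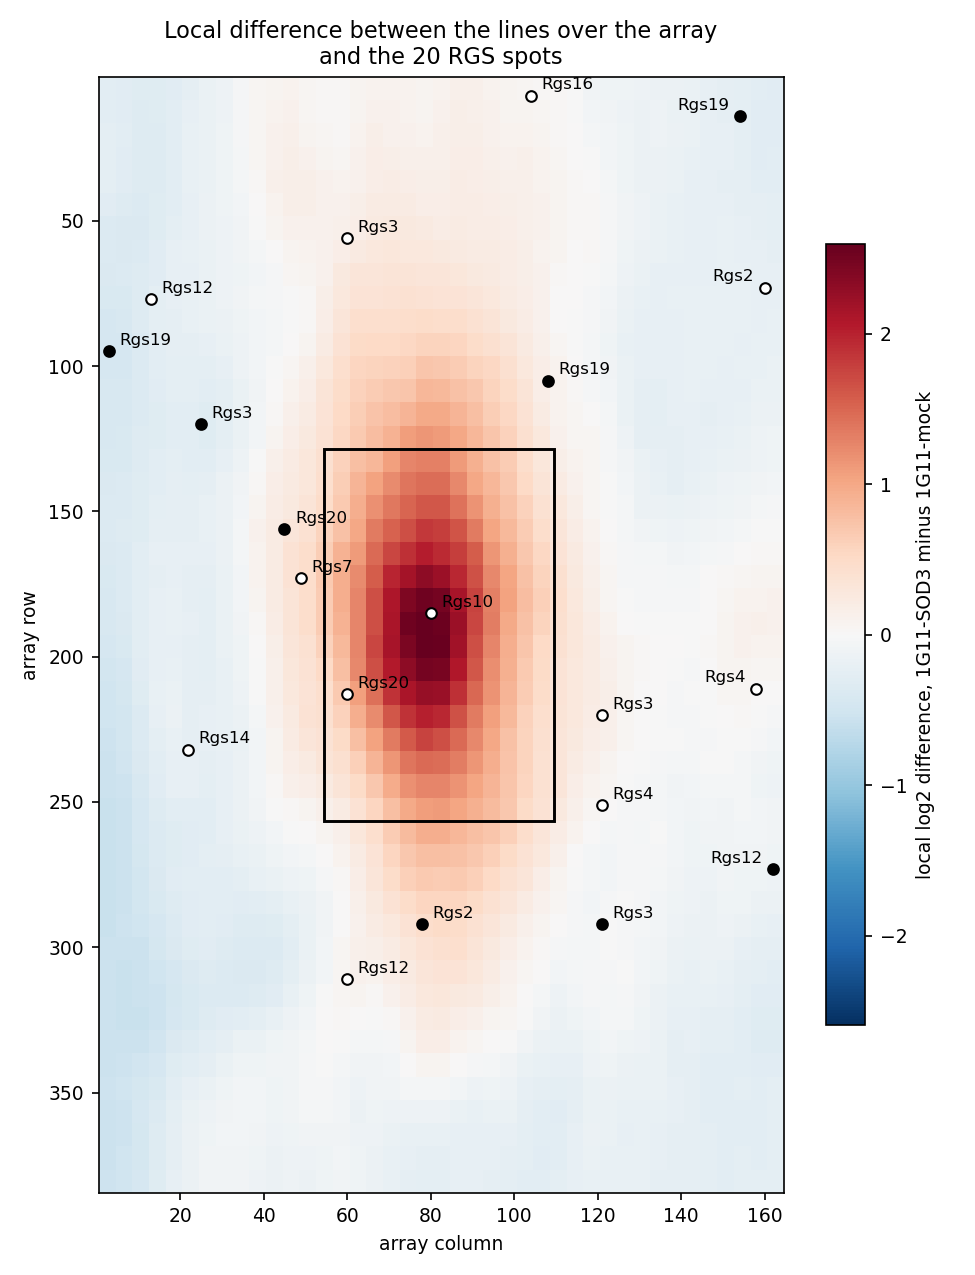
Local log2 difference between the lines (1G11-SOD3 minus 1G11-mock, mean of the median deviation of the 200 nearest spots above background on 3 or more arrays) over array rows and columns, with the 20 RGS spots as dots, filled where the spot was above background on all 6 arrays. The box marks the middle; the Rgs10 spot lies near its centre, where the local difference was 2.60, and the Rgs2 spot at row 292 lies below the box, where it was 0.46.

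Of the 18 RGS probes outside the middle, none met the threshold, a difference above 2-fold together with a limma adjusted p below 0.05 (Benjamini-Hochberg over the whole array), against 1.86% of all 49526 probes there and 4.57% of those above background on all 6 arrays. At an unadjusted p under 0.05 there were 4 of 18, beside 12.7% of all probes outside the middle. Their median log2 fold change was 0.23 over all 18 and 0.11 over the 8 above background on 6 arrays, beside medians of -0.06 for all probes outside the middle and -0.17 for those above background on 6 arrays. The arrays of the lines did not overlap for 3 of the 18 (Rgs2 A_55_P2109857 and Rgs19 A_52_P555235 higher, Rgs3 A_55_P2027102 lower in 1G11-SOD3), beside 19.6% of all probes outside the middle. These 3, like the 4 at an unadjusted p under 0.05, were all among the 8 above background on 6 arrays. The shares of 12.7% and 19.6% also count dim probes, so they are not matched to the 8, and no excess is read from these counts. Both probes in the middle passed the threshold as higher, where 11.9% of all probes in the middle did. That share also counts dim probes. Both RGS probes were among the 2332 in the middle above background on 3 or more arrays, whose median log2 fold change was 1.1. A probe can enter that set by its SOD3 arrays alone, which favours higher values. The median over all probes in the middle was 0.18. No result of these 20 probes passed after the adjustment for position.

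**Figure D2:**
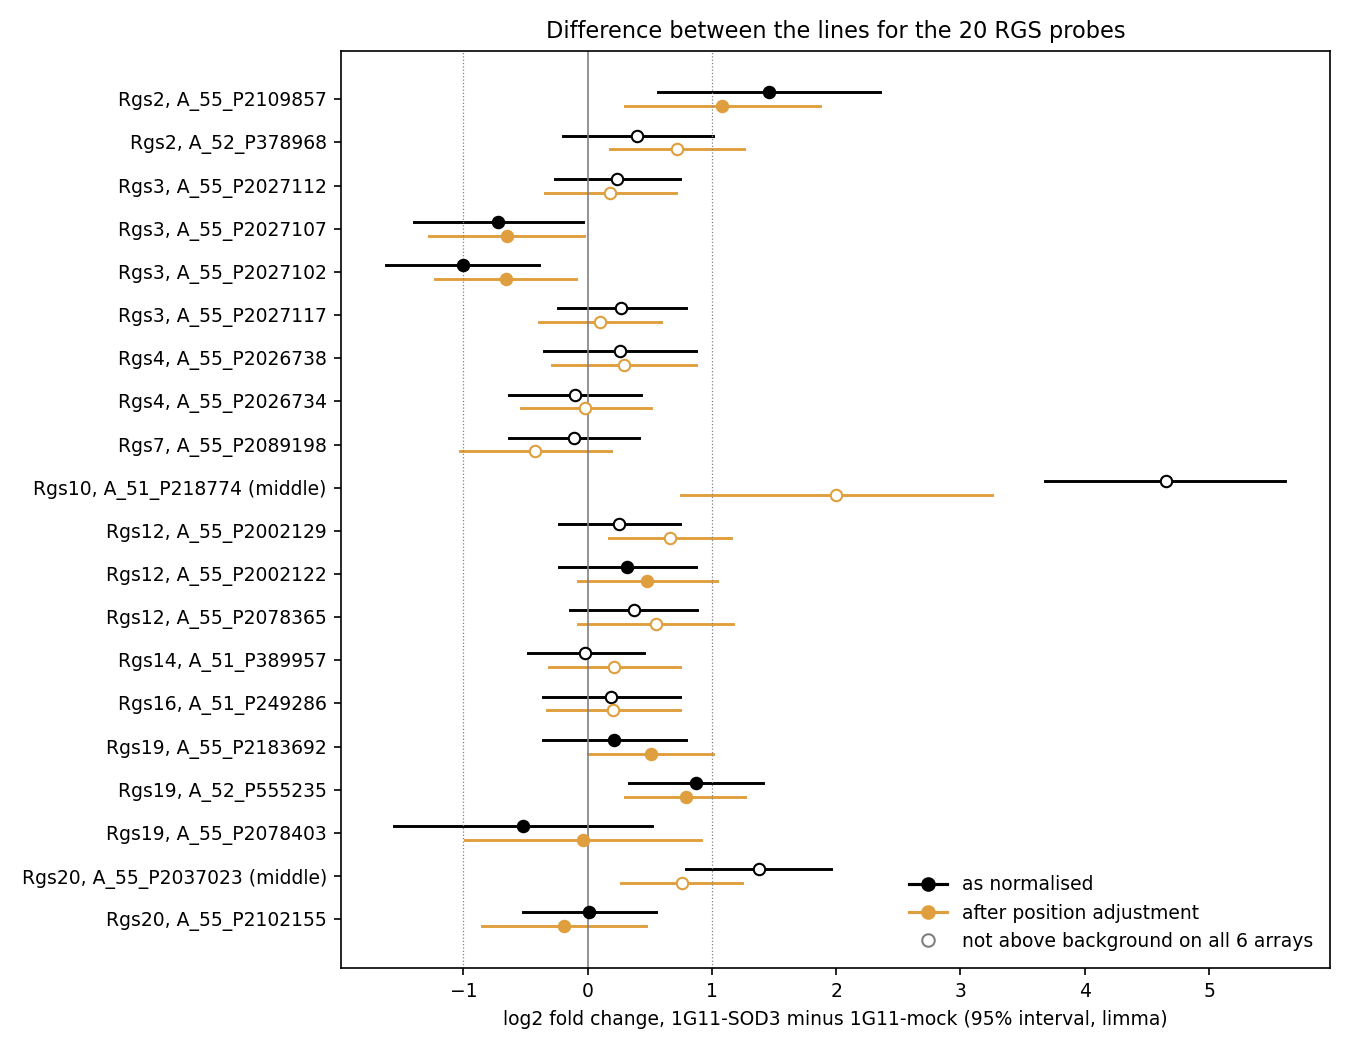
Log2 fold change (1G11-SOD3 minus 1G11-mock) of the 20 RGS probes with 95% intervals from limma, as normalised (black) and after subtraction of the local deviation at the spot (orange); filled dots are probes above background on all 6 arrays. Rgs10 moves from 4.65 to 2.0 with the adjustment and Rgs20 A_55_P2037023 from 1.38 to 0.76, while Rgs3 A_55_P2027102 (-1.0 and -0.66) and Rgs19 A_52_P555235 (0.87 and 0.79) keep their side of 0.

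Rgs2, an R4 protein with a preference for the Gq alpha subunit and a known brake on vasoconstrictor signals, gave the largest difference outside the middle. On the log2 scale its probe A_55_P2109857 read 10.99, 10.52 and 9.26 in 1G11-mock and 12.24, 11.58 and 11.33 in 1G11-SOD3. All 3 SOD3 arrays lay above all 3 mock arrays, and the mock arrays were spread the more widely, with the third the lowest. The log2 fold change was 1.46 (SE 0.404, 95% interval 0.57 to 2.35), or 2.75-fold, with a limma adjusted p of 0.0874. With the replicate number as a block the difference stayed at 1.46 and the adjusted p was 0.00945, which passes the threshold. It also passed without mock replicate 1 (1.83, adjusted p = 0.0363) and was 0.96 without mock replicate 3 (adjusted p = 0.18).

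The Rgs2 spot sits at row 292 and column 78, below the box of the map but in its halo. Spots around it deviated by 0.01, -0.23 and -0.54 on the mock arrays and by 0.45, -0.06 and 0.23 on the SOD3 arrays, so the array lowest for Rgs2 was also lowest for its neighbours. After adjustment for position the values were 11, 10.74 and 9.63 against 11.80, 11.67 and 11.14, still without overlap, and the log2 fold change was 1.08 (95% interval 0.30 to 1.87; limma adjusted p = 0.116). The other Rgs2 probe, A_52_P378968, at base 2190 of the transcript, was above background on no array, so Rgs2 rests on a single probe.

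Rgs3, an R4 protein that acts on Gi and Gq alpha subunits and has long isoforms with further domains, had 2 measured probes, both with negative values. A_55_P2027102 read 14.02, 13.13 and 13.93 in 1G11-mock and 12.94, 12.50 and 12.63 in 1G11-SOD3. The lines did not overlap, but mock replicate 2 lay only just above the highest SOD3 array. Its log2 fold change was -1.0 (SE 0.279, 95% interval -1.62 to -0.39), with a limma adjusted p of 0.0886. The block on the replicate number brought the adjusted p to 0.0375 at a value of -1.0, and leaving out mock replicate 2 gave -1.29 (adjusted p = 0.0447).

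The second Rgs3 probe, A_55_P2027107, which covers the RGS box, read 10.51, 11.22 and 11.77 against 10.20, 10.57 and 10.57. The lines overlapped, as mock replicate 1 lay among the SOD3 arrays. Its log2 fold change was -0.72 (95% interval -1.40 to -0.04; limma adjusted p = 0.313). After adjustment for position the 2 probes gave -0.66 (95% interval -1.23 to -0.09) and -0.65 (-1.28 to -0.03), with adjusted p of 0.176 and 0.22. Both probes lie on the same transcript, at bases 3676 and 2891. The remaining Rgs3 probes, A_55_P2027112 and A_55_P2027117, were designed on other transcripts of the gene and were above background on no array.

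**Figure D3:**
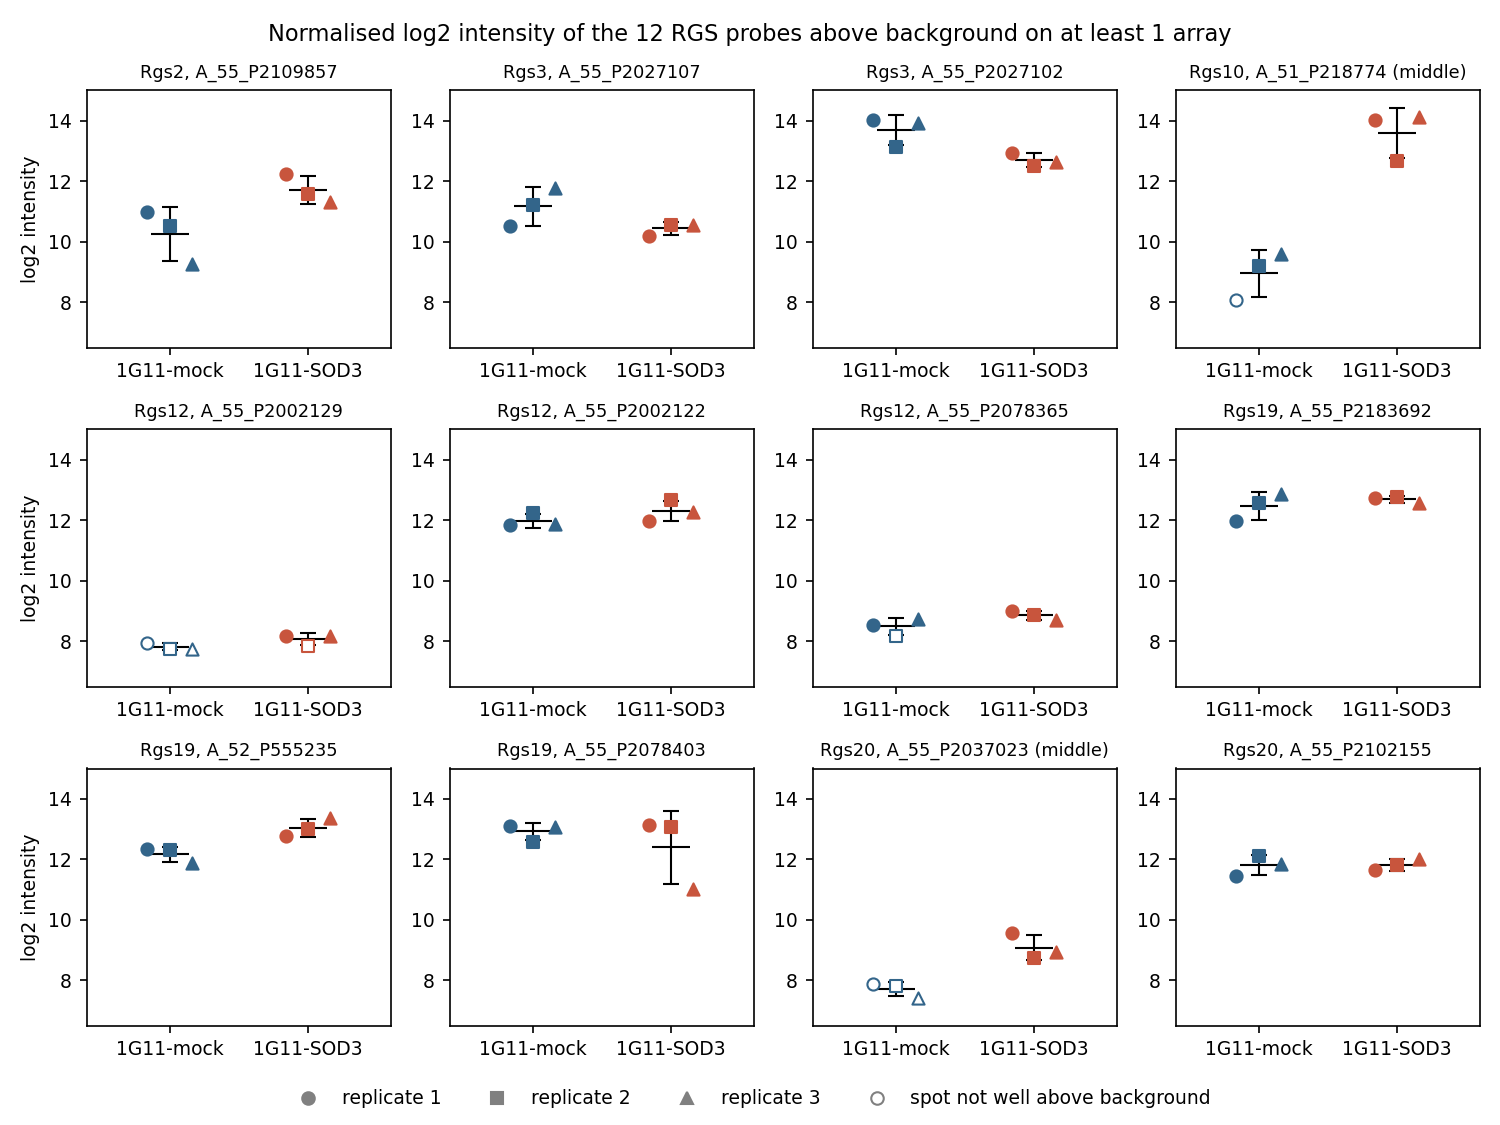
Normalised log2 intensity on each array of the 12 RGS probes above background on at least 1 array; bars are the mean and SD of 3 arrays, symbols mark the replicate number, and open symbols are spots not well above background. Levels are comparable between lines within a panel, not between panels. Rgs10 shows the widest gap (8.09 to 9.59 against 12.66 to 14.14), and the Rgs19 probe A_55_P2078403 has 1 low array (11.01).

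Rgs4 and Rgs16, the remaining R4 members, and Rgs7 of the R7 subfamily were not detected. The 2 Rgs4 probes, the Rgs7 probe and the Rgs16 probe had spot intensities from 180 to 415 before any correction, where the local background ran from 65 to 138 around the RGS spots. Rgs4 is abundant in brain and heart, Rgs7 in neurons, and Rgs16 is known as an inducible gene of immune and vascular cells. At this signal their transcripts were not detectable in either line, which does not show that they are absent.

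Rgs10, the smallest R12 protein and little more than an RGS box selective for Gi alpha subunits, had by far the widest gap between the lines. Its spot read intensities of 390, 629 and 835 on the 1G11-mock arrays and 19800, 7350 and 24300 on the 1G11-SOD3 arrays. These became 8.09, 9.19 and 9.59 against 14.01, 12.66 and 14.14 on the normalised log2 scale. The lowest SOD3 array lay well above the highest mock array, and mock replicate 1 was the only array on which the spot was not above background. The log2 fold change was 4.65 (SE 0.441, 95% interval 3.68 to 5.61), or 25.1-fold, with a limma adjusted p of 0.00038, and it passed the threshold without any 1 of the 6 arrays (4.22 to 5.12).

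This value comes from the middle of the array, at row 185 and column 80. The 200 spots around it deviated by -0.46, -1.69 and -1.74 on the mock arrays and by 1.59, 0.67 and 1.64 on the SOD3 arrays. Among the SOD3 arrays the lowest Rgs10 value and the lowest neighbourhood were both those of replicate 2, while among the mock arrays Rgs10 was lowest on replicate 1, where the neighbourhood was least dim. With the local deviation subtracted, Rgs10 read 8.68, 10.98 and 11.31 in 1G11-mock and 12.46, 12.05 and 12.46 in 1G11-SOD3. The lines still did not overlap, and the SOD3 arrays lay closer together and the mock arrays farther apart than before.

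After that adjustment the Rgs10 difference was 2.0 on the log2 scale (SE 0.563, 95% interval 0.75 to 3.25), or 4.0-fold, with a limma adjusted p of 0.0776. The part of the difference that the neighbourhood also showed was 2.60. Of the 2332 probes in the middle above background on 3 or more arrays, whose median log2 fold change was 1.10 before and 0.16 after the adjustment, 13 had a larger value than Rgs10 before it and 31 after it. No other Rgs10 probe is on the array, so the gene has no reading from outside the middle.

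**Figure D4:**
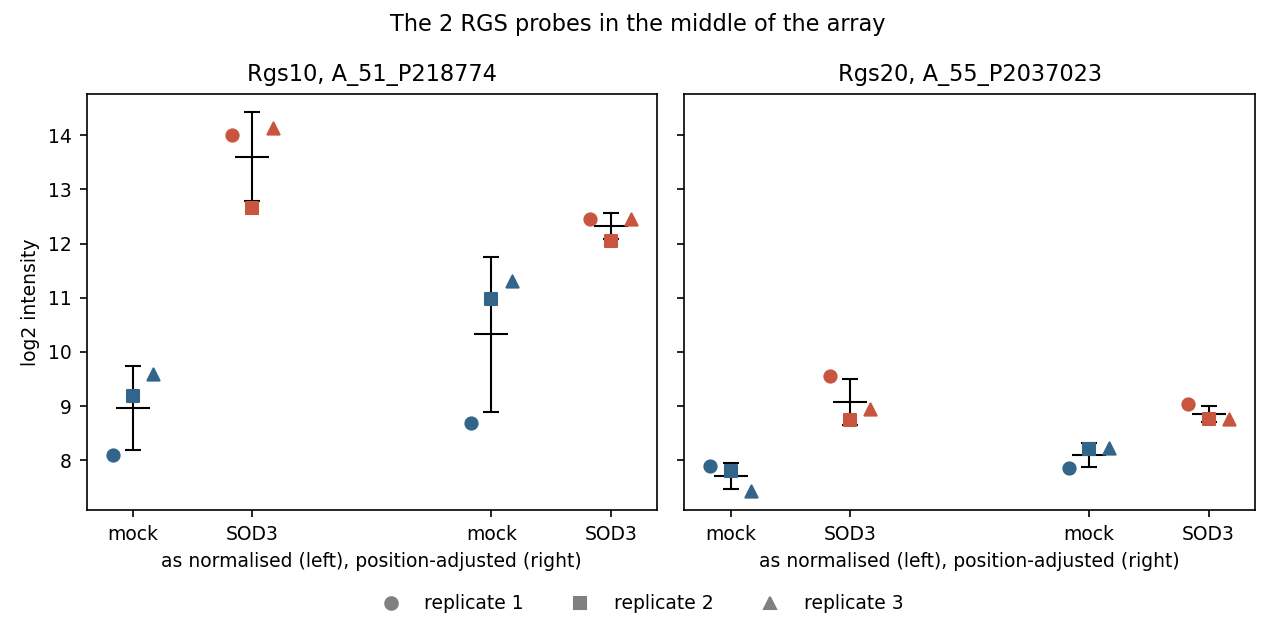
Log2 intensity on each array of the 2 RGS probes in the middle of the array, as normalised (left pair of each panel) and after subtraction of the local deviation (right pair), with mean and SD of 3 arrays. The lines do not overlap in any of the 4 pairs, and the gap for Rgs10 narrows from 4.65 to 2.0.

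Rgs12, a large R12 protein with PDZ and GoLoco domains that also scaffolds Ras and MAP kinase signaling, had 3 probes on its transcript, none in the middle. A_55_P2002122 was above background on every array and read 11.85, 12.25 and 11.88 in 1G11-mock and 11.98, 12.67 and 12.28 in 1G11-SOD3. The lines overlapped, and the log2 fold change was 0.32 (95% interval -0.23 to 0.87; limma adjusted p = 0.627). A_55_P2078365, above background on 5 arrays, gave 0.37 (95% interval -0.14 to 0.88). A_55_P2002129 was above background on SOD3 replicates 1 and 3 and on no mock array, the lines overlapped, and the log2 fold change of 0.25 had a 95% interval of -0.23 to 0.74 (adjusted p = 0.667) and changed sign with 75th percentile scaling (-0.07).

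Rgs14, the other R12 protein with a GoLoco domain, was not detected. Its probe had intensities from 271 to 371 and lay above background on no array. The R12 members thus split into Rgs10, measured in the middle, Rgs12, measured outside it with overlapping lines, and Rgs14, not detectable here.

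Rgs19, also known as GAIP, is an RZ protein that binds Gi alpha subunits and the scaffold protein Gipc1. It was the only member with every probe above background on all 6 arrays. A_52_P555235 read 12.34, 12.30 and 11.88 in 1G11-mock and 12.77, 13.00 and 13.36 in 1G11-SOD3. The lines did not overlap, and the log2 fold change was 0.87 (SE 0.247, 95% interval 0.33 to 1.41), or 1.83-fold, with a limma adjusted p of 0.0973. With 75th percentile scaling in place of quantile normalization it was 1.04 with an adjusted p of 0.0468, and after adjustment for position it was 0.79 (adjusted p = 0.0736).

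The other two Rgs19 probes did not repeat that value. A_55_P2183692 read 11.98, 12.57 and 12.88 against 12.72, 12.78 and 12.57, with the SOD3 arrays inside the mock range, and gave a log2 fold change of 0.21 (95% interval -0.36 to 0.79; limma adjusted p = 0.773). A_55_P2078403 read 13.10, 12.58 and 13.07 against 13.13, 13.07 and 11.01. Its value of -0.52 (95% interval -1.56 to 0.52) rests on SOD3 replicate 3, and without that array it was 0.18 (adjusted p = 0.808). The 3 intervals overlap one another, and no order among the probes is read from them.

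Rgs20, an RZ protein that prefers the Gz alpha subunit and is best known from neurons, had the pair of overlapping probes printed above. The probe in the middle, A_55_P2037023 at row 213 and column 60, read 7.89, 7.80 and 7.43 in 1G11-mock, none of them above background, and 9.56, 8.74 and 8.94 in 1G11-SOD3, all above background. The lines did not overlap. As normalised, the point estimate for Rgs20 by this probe was at least 2.60-fold higher in 1G11-SOD3. That bound accounts for the background alone, not for the place of the spot or the spread between arrays. The log2 fold change was 1.38 (SE 0.266, 95% interval 0.79 to 1.96, limma adjusted p = 0.0181). That call was lost without mock replicate 2 (adjusted p = 0.0631), mock replicate 3 (0.0585), SOD3 replicate 1 (0.0786) or SOD3 replicate 3 (0.0623).

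The neighbourhood of that spot differed by 0.79 between the lines. After adjustment for position Rgs20 read 7.85, 8.21 and 8.23 against 9.03, 8.77 and 8.76. That is a log2 fold change of 0.76 or 1.69-fold (95% interval 0.27 to 1.24 on the log2 scale, limma adjusted p = 0.085). The mock spots were at background, where a deviation taken from brighter spots may not hold, so this adjusted value is uncertain. Over all probes in the middle, dim ones included, the adjustment took the median from 0.18 to -0.62. The probe outside the middle, A_55_P2102155 at row 156 and column 45, read 11.46, 12.11 and 11.84 against 11.63, 11.80 and 12.02, with overlapping lines. Its log2 fold change was 0.01 (95% interval -0.52 to 0.55, limma adjusted p = 0.988), so the call for Rgs20 in the middle was not repeated by the probe that shares 18 bases with it. The probes differed in level, with spot intensities from 2760 to 6280 for A_55_P2102155 and from 353 to 911 for A_55_P2037023. A_55_P2102155 also ends in the run of 29 alternating C and T bases. Whether both probes read the same transcript was not tested. Of the 2332 probes in the middle counted above, 921 had a larger log2 fold change than Rgs20 A_55_P2037023. This probe entered that set by its SOD3 arrays alone, so its rank there is partly set by the filter and carries no test.

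The pattern over the 6 arrays most like that of Rgs2 A_55_P2109857 was sought among 11400 named probes outside the middle and above background on all 6 arrays. The closest were Bola2, Nudcd3 and Mrps12, with root mean square differences of 0.19, 0.205 and 0.217 on the log2 scale after centring each probe on its own mean. Their log2 fold changes were 1.28, 1.26 and 1.29, which is a description of likeness over 6 arrays and carries no test.

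The wider G protein pathway was read from 7 lists of 8 to 28 genes, each gene by 1 probe, outside the middle where it had one there. By limma 4 genes passed as higher and 3 as lower in 1G11-SOD3, beside 2.67% and 1.77% of all 22190 genes read the same way, and 22 had an unadjusted p under 0.05, as had 18.4% of all genes read this way. Their median log2 fold change was -0.09. The other RGS genes gave none of 11 past the threshold, and 8 of the 11 were above background on no array, among them Rgs5, a marker of pericytes. After adjustment for position Rgs1, above background on 1 mock array and on no SOD3 array, passed as lower (-1.3, limma adjusted p = 0.036). The binding partners and GoLoco proteins gave none of 11, although 8 were above background on all 6 arrays.

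**Figure D5:**
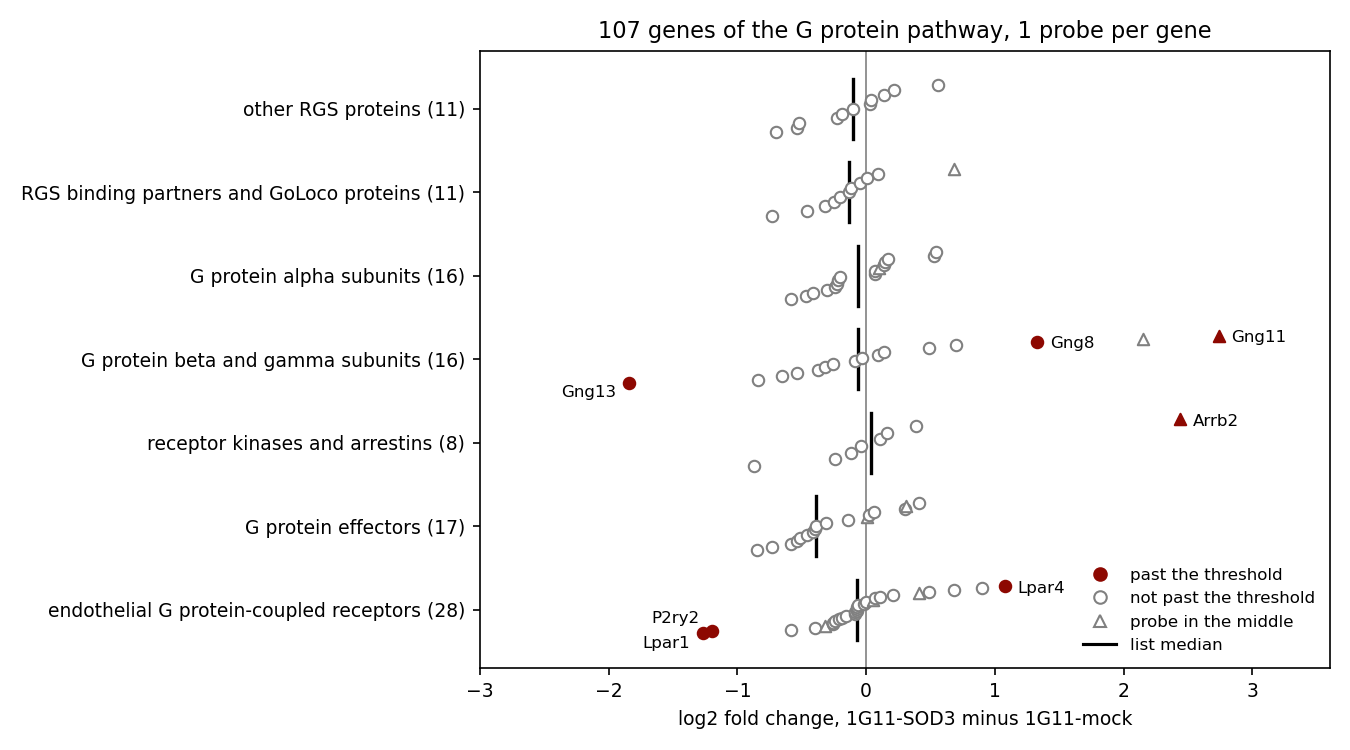
Log2 fold change (1G11-SOD3 minus 1G11-mock) of G protein pathway genes in 7 lists, 1 symbol per gene; filled symbols passed the threshold, triangles are probes in the middle of the array and vertical bars are list medians. The 7 filled symbols are Gng8, Gng11, Arrb2 and Lpar4 on the right and Gng13, Lpar1 and P2ry2 on the left, and the medians lie between -0.39 and 0.04.

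The alpha subunits, on which RGS proteins act, gave none of 16 past the threshold. Of these, 7 were above background on all 6 arrays: Gnai2 and Gnai3 of the Gi class, Gnaq and Gna11 of the Gq class, Gna13, Gnas and Gnat2. The log2 fold changes of the first 4 were 0.17, -0.22, -0.47 and -0.41. Gnb5, the partner of Rgs7, gave -0.73 and Gipc1, the partner of Rgs19, gave -0.13, neither past the threshold.

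Among 16 beta and gamma subunits, Gng8 and Gng11 passed as higher and Gng13 as lower. Gng8 read 7.35, 7.94 and 7.78 in 1G11-mock, none above background, and 9.24, 9.02 and 8.79 in 1G11-SOD3, without overlap. Its point estimate was at least 2.51-fold higher (limma adjusted p = 0.0142, and 0.0711 without SOD3 replicate 1). This bound for Gng8 accounts for the background alone, not for the spread between arrays. The limma interval ran from 0.79 to 1.87 on the log2 scale. Gng13 read 13.46, 13.29 and 12.90 against 12.23, 11.68 and 10.22, also without overlap. It differed by -1.84 on the log2 scale (limma adjusted p = 0.0409) and passed in only 1 of the 6 fits that leave out an array, that without SOD3 replicate 1 (adjusted p = 0.0196); the highest of the others was 0.144. After adjustment for position these genes were at 1.73 and -1.92 with adjusted p of 0.00851 and 0.0189.

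Gng11, a gamma subunit found in many non-neuronal tissues, and Arrb2, which uncouples receptors from G proteins, had their probes in the middle of the array and are named here after their values were seen. Gng11 was higher by 2.74 on the log2 scale (limma adjusted p = 0.00803) and by 1.03 after adjustment for position (adjusted p = 0.0425). It did not pass without SOD3 replicate 3 (2.66, adjusted p = 0.0558). Arrb2 was higher by 2.44 (adjusted p = 0.0209) and by 0.42 after adjustment (adjusted p = 0.408). It passed only without mock replicate 1 (3.06, adjusted p = 0.00167) or SOD3 replicate 2 (2.74, adjusted p = 0.0218), and the highest adjusted p without an array was 0.108.

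The effectors, among them adenylyl cyclases and phospholipases C beta, gave none of 17 past the threshold, with 7 above background on all arrays, 3 at an unadjusted p under 0.05 and a median log2 fold change of -0.39. Of the 28 receptors, Lpar4 passed as higher and Lpar1 and P2ry2 as lower, and 13 were above background on no array. Lpar4, a lysophosphatidic acid receptor, read 8.32, 8.11 and 8.43 against 9.22, 9.16 and 9.71, without overlap, a log2 fold change of 1.08 (limma adjusted p = 0.0331). That call was lost without any 1 of the 6 arrays (adjusted p from 0.0537 to 0.124).

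Lpar1, a receptor for the same lipid, ran from 9.83 to 10.07 in 1G11-mock and from 8.56 to 8.88 in 1G11-SOD3. The lines were well apart, with a log2 fold change of -1.27 (limma adjusted p = 0.00967; 0.0516 without SOD3 replicate 3), but the adjustment for position brought it to -0.56 (adjusted p = 0.232). P2ry2, a receptor for ATP and UTP, read 9.69, 9.56 and 9.64 against 8.98, 8.14 and 8.18. Its difference was -1.20 on the log2 scale (limma adjusted p = 0.0329) and -1.18 after adjustment for position (adjusted p = 0.0207). Of the fits that leave out an array it passed in that without SOD3 replicate 1 (adjusted p = 0.0185), with adjusted p up to 0.139 in the others.

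Cell type markers were read beside these results. Of 12 endothelial markers, 4 were above background on all 6 arrays (Kdr, Eng, Vwf and Esam), and 5 on none, among them Cdh5, which encodes VE-cadherin, Tek and Tie1. Each of these 3 genes was read by a single probe, and the study's methods describe regular staining of the line for VE-cadherin, so the readings do not show that the genes are silent. Vwf was lower in 1G11-SOD3 by -1.65 on the log2 scale (limma adjusted p = 0.00332). Eng (-1.05, adjusted p = 0.0834) and Kdr (-0.50, adjusted p = 0.299), both outside the middle, did not pass, and their lines did not overlap. Flt1 (1.07) and Esam (1.22), both in the middle, did not pass (limma adjusted p = 0.216 and 0.186). With the replicate block both passed as higher (adjusted p = 0.0241 and 0.0486). Without 1 array the lowest adjusted p was 0.0761 for Flt1 and 0.0386 for Esam. After adjustment for position they were at 0.30 and -0.26 (adjusted p = 0.62 and 0.56). The summed intensity of the 12 ran from 22400 to 30100 in 1G11-mock and from 15300 to 19000 in 1G11-SOD3. Eng alone made up 43.5% to 65.8% of the mock sums and 38.3% to 44.5% of the SOD3 sums. Of 5 mesenchymal and mural markers, Acta2 (log2 fold change 2.62), Pdgfrb (2.39) and Lum passed as higher. Lum was above background on no mock array, and its point estimate was at least 3.33-fold higher. This bound for Lum accounts for the background alone, not for the spread between arrays. The limma interval ran from 0.99 to 2.78 on the log2 scale. The call for Lum was lost without mock replicate 2, mock replicate 3 or SOD3 replicate 3 (adjusted p up to 0.11). The summed intensity of the 5 ran from 20300 to 31300 in 1G11-mock and was 26800, 24800 and 147000 in 1G11-SOD3. The high sum of SOD3 replicate 3 was 93.2% Dcn, which read 17.07 there against 13.52 and 13.58 on the other SOD3 arrays and did not pass (0.29, adjusted p = 0.903).

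None of 5 epithelial markers passed, with sums from 67000 to 112000 in 1G11-mock and from 44400 to 84000 in 1G11-SOD3, and from 98.1% to 99.2% of each sum was Krt19 (log2 fold change -0.51, adjusted p = 0.486), the only one of them above background on all 6 arrays. Epcam was above background on no array. The part of these marker differences in the RGS values was not tested. In RNA from whole cultures, fewer cells of a kind and less RNA per cell cannot be told apart.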

How the data were processed

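The data are 6 single-colour Agilent SurePrint Mouse G3 arrays, 3 per line. The authors deposited spot intensities from Feature Extraction 10.7.3.1 for each array, not normalized between arrays. They also deposited a table of log2 values, background corrected by normexp (offset of 50) and quantile normalized with limma, which served as an alternative. Here the mean spot intensity was corrected for the local background median by normexp (offset of 50), taken to log2 without control and outlier spots, and quantile normalized. None of the 20 RGS spots carried an outlier flag. Spots of a probe were averaged separately inside and outside the middle of the array, which gave 55961 values. Lines were compared with limma 3.58.1 in R 4.3.3 (lmFit and eBayes) with Benjamini-Hochberg adjustment over all values, and the threshold was a difference above 2-fold with an adjusted p below 0.05. Intervals are 95% intervals of that fit. For position, the median deviation of the 200 nearest spots above background on 3 or more arrays was subtracted before quantile normalization. Among copies of the brighter probes that were printed many times, it lowered the median SD of the group difference from 0.541 to 0.171. In the middle its effect depends on signal: the median over all probes there, dim ones included, went from 0.18 to -0.62.

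Probes were named by transcript accession through RefSeq (GRCm38.p6) for 27656 probes and from the file's description for 1479, and 26546 stayed unnamed. Of the 20 RGS probes, 19 matched by accession. The chromosome positions of the files are of an unnamed build, and none of the 20 falls in its gene on GRCm38. Same-numbered arrays deviated together from their line's mean (r = 0.166, 0.102 and 0.156 for numbers 1, 2 and 3 over 16354 probes), so a fit with the number as a block was run, and its value is given where it changes a call. The number is also the slide column in both lines, so a shared experiment and a shared column cannot be told apart. The study's methods use no block.

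The members and gene lists were chosen with earlier results of these data known. Named beside the members are the pathway genes past the threshold outside the middle, Sod3, the 3 probes most like the leading RGS probe, and cell type markers. Gng11, Arrb2 and the pathway genes named without passing as normalised were chosen after their values were seen. The number of arrays, 3 per line, limits the precision, and signal over background limits the dim probes. With 3 against 3, an exact permutation test cannot go below p = 0.1, so none was used. The result of 1 marker list is not reported here. The position surface used scipy 1.17.1, and other steps ran in Python 3.11.15 with matplotlib 3.10.9 for the figures, pandas 2.3.3 and numpy 2.4.6.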

Additional observations from a re-analysis of the deposited data

How the results depend on the processing

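The number of RGS probes outside the middle that passed the threshold was 0 and stayed so over all 6 arrays except for a count of 2 with each of these settings: processed signal scaled to the 75th percentile (Rgs3 A_55_P2027112 and Rgs4 A_55_P2026738, both above background on no array), intensities with 75th percentile scaling (Rgs2 at 1.58, adjusted p = 0.00699, and Rgs19 A_52_P555235), and the replicate block (Rgs2 and Rgs3 A_55_P2027102). It ranged from 0 to 1 without 1 array. In the middle, 2 probes passed, but 1 without background correction, 0 after position adjustment and 1 to 2 without 1 array. Of the pathway genes, 7 passed, but 2 without background correction, 4 with an offset of 16 and 26 with processed signal (6 higher, 20 lower). The count was 3 with the middle left out, where Gng11 and Arrb2 were not measured and Gng13 and P2ry2 did not pass. It was 1 to 5 without 1 array. With cyclic loess Gng13 and P2ry2 did not pass, nor did Lpar4 with 75th percentile scaling. After position adjustment Lpar1 and Arrb2 did not pass. Rgs1, Gnb4 (1.02, limma adjusted p = 0.0332) and Adcy1 (-2.38, adjusted p = 0.00118, above background on no array) passed there. The median over all probes was -0.52 with processed signal and -0.33 with 75th percentile scaling, against -0.03, and the share of calls that were higher went from 64.8% to 11.1% with processed signal and to 28.9% with position adjustment. The block changed no other call among RGS and pathway genes. Some small values changed sign: Rgs12 A_55_P2002129 (-0.07 with 75th percentile scaling), Rgs19 A_55_P2078403 (0.19 with processed signal; -0.88 to 0.18 without 1 array), Rgs19 A_55_P2183692 (-0.04 to 0.42 without 1 array), and Rgs20 A_55_P2102155 (-0.03 with median pixel intensity and with the deposited table, -0.36 with processed signal, -0.19 after position adjustment, and -0.16 to 0.17 without 1 array). The cause of these changes was not tested.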
